A study of Rattus norvegicus with 35 samples.

Results

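The 9 microRNAs described here, miR-17-5p, miR-18a-5p, miR-18a-3p, miR-19a-3p, miR-19b-3p, miR-20a-5p, miR-93-5p, miR-106b-5p and miR-106b-3p, are products of the miR-17/92 and miR-106b/25 clusters. They were taken by name from the deposited count table and leave out the products with the miR-25/miR-92 seed. They are 9 of 763 mature microRNAs in the table, and all 9 were among the 328 with enough reads to be tested. The study asked which liver microRNAs change when ketoconazole, an azole antifungal drug that can injure the liver, is given to rats. Male Sprague-Dawley rats, 6 weeks old, received ketoconazole by mouth each day at 10 mg/kg (low), 30 mg/kg (middle) or 100 mg/kg (high), or the vehicle alone, 0.5% methylcellulose (control), for 3, 7 or 14 days. Livers were taken 24 h after the last dose. Small RNA sequencing gave 35 libraries in 12 groups, 3 per group except 2 for the control of day 14. The labels name no genetic change in any group, and each library is whole liver tissue.

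MicroRNAs are short RNAs that lower the output of messenger RNAs matched by their seed, the bases near the 5′ end. The miR-17/92 cluster is cut from a primary transcript that the growth-driving factors MYC and E2F induce, and its products are known to hold down brakes on cell division and survival such as the cell-cycle inhibitor p21. The miR-106b/25 cluster, its relative, lies in an intron of Mcm7, a gene for a DNA replication licensing subunit that is active in dividing cells. In liver these microRNAs are known from regeneration and from liver cancer.

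The mature sequences are shown because seed and arm organise the results. All 9 members matched RefSeq entries on the rat assembly GRCr8. Each is written 5′ to 3′ with the seed, bases 2 to 8, in capitals.
miR-17-5p: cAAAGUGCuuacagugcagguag
miR-20a-5p: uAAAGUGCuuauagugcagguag
miR-93-5p: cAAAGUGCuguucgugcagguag
miR-106b-5p: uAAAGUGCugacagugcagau
miR-18a-5p: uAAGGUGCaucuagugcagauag
miR-18a-3p: aCUGCCCUaagugcuccuucu
miR-19a-3p: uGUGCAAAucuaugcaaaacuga
miR-19b-3p: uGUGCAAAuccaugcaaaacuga
miR-106b-3p: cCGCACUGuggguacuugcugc
The first 4 share the seed AAAGUGC, and miR-19a-3p and miR-19b-3p share GUGCAAA. miR-17-5p and miR-20a-5p differ at 2 positions counted from the 5′ end, C1U and C12U, and miR-19a-3p and miR-19b-3p at 1, U11C. In GRCr8, Mir17, Mir18a, Mir19a, Mir20a, Mir19b1 and Mir92a1 follow each other on the plus strand of chromosome 15, from the start of Mir17 (chr15:98587848-98587931) to the end of Mir92a1 (chr15:98588555-98588632). The mature miR-17-5p (chr15:98587861-98587883) and miR-20a-5p (chr15:98588318-98588340) therefore come from the same cluster. The same mature letters as miR-17-5p are also annotated on the minus strand of chromosome X under Mir106a (chrX:137343615-137343637), and those of miR-19b-3p under Mir19b2 (chrX:137343070-137343092), so the counts cannot tell these loci apart. miR-93-5p (chr12:22156894-22156916) and miR-106b-5p (chr12:22157103-22157123) lie on the minus strand of chromosome 12. How reads that fit several near-identical microRNAs were assigned is not given in the sources used here, which bears on every comparison within a seed family.

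Total microRNA counts ran from 2665943 to 9665416 per library, with a median of 3758063. The first principal component of all tested microRNAs held 46.2% of the variance and split the libraries without overlap into 14 (all controls and the low dose on days 3 and 14, scores -14.49 to -4.32) and 21 (the low dose on day 7 and every middle and high dose library, 4.24 to 6.47). The labels name no batch, and for the contrasts of treated against control groups this split and the dose cannot be told apart. Contrasts inside 1 of these sets are those of the high with the middle dose, of the high with the low dose at day 7, and, at days 3 and 14, of the low dose with its controls. Replicates 2 and 3 of the day 7 control scored -14.49 and -13.26 against -7.47 for replicate 1, so results that use them are also given without them where they change. Hepatocyte markers were present in every library, led by miR-192-5p and miR-148a-3p and followed by miR-122-5p, with a summed level of 225374 to 339735 CPM (counts scaled to a common library total). In whole liver, fewer cells of a type and less RNA per cell cannot be told apart.

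Levels are given in CPM after scaling between libraries, and changes as log2 fold changes ± SE from edgeR's quasi-likelihood test, with p-values adjusted by the Benjamini-Hochberg method over all 328 microRNAs and a threshold of 0.05. Library preparation takes up different microRNAs unevenly, so levels of different members do not rank their molecules. Over all libraries the mean level was 682 CPM for miR-93-5p, 571 for miR-19b-3p, 235 for miR-20a-5p, 183 for miR-17-5p, 112 for miR-106b-5p, 68.8 for miR-19a-3p, 38.5 for miR-106b-3p, 17.2 for miR-18a-5p and 1.18 for miR-18a-3p. These place miR-93-5p at rank 67 of 328 and miR-18a-3p at rank 324. In the controls no member passed the test between days 7 and 3, where 1.52% of all microRNAs did, or between days 14 and 3, where 0% did. At an unadjusted p under 0.05, 1 member differed in each of these comparisons, and 71 and 29 of all microRNAs did.

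**Figure D1:**
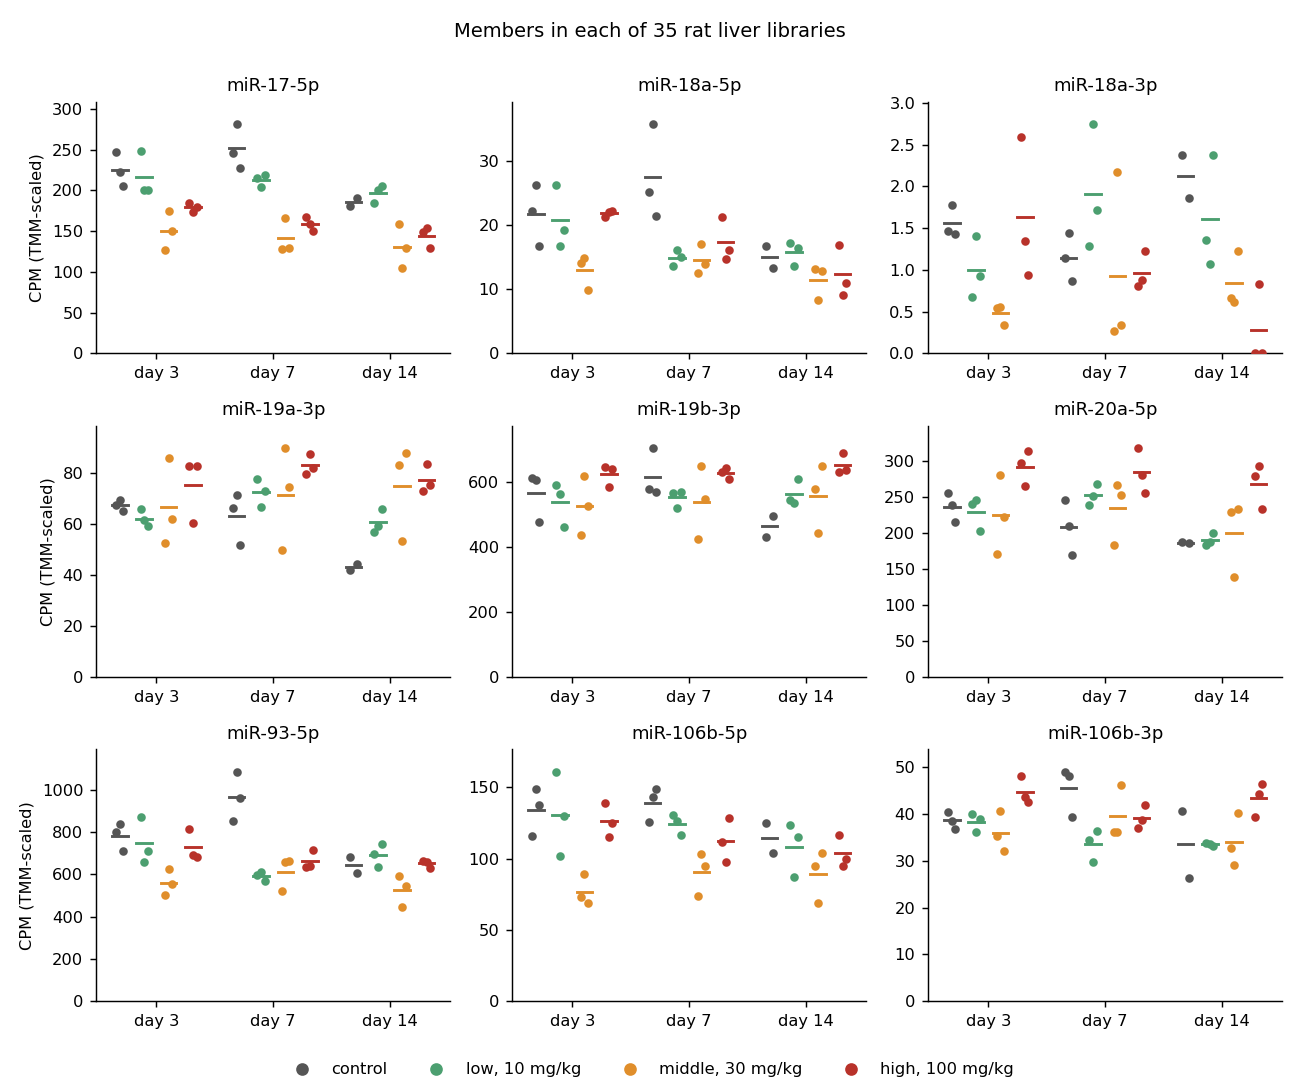
Level of each member in every library (vertical axis, CPM scaled by TMM, starting at 0) by day, with 1 point per library and a bar at the group mean. Within each day, all high and middle dose libraries lie below all controls for miR-17-5p, while the high dose libraries lie above them for miR-20a-5p.

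The members did not move as a block. Averaged over the 3 days, 6 of 9 members passed the test at the high dose, where 62.8% of all tested microRNAs did: miR-19a-3p, miR-20a-5p and miR-19b-3p were higher, and miR-17-5p, miR-93-5p and miR-18a-3p were lower. The middle dose also gave 6 of 9, against 61.9% of all: miR-17-5p, miR-18a-5p, miR-18a-3p, miR-93-5p and miR-106b-5p fell and miR-19a-3p was higher. The members' median log2 change was -0.18 at the high dose and -0.47 at the middle dose, beside -0.04 and -0.02 over all microRNAs. The share of members that passed was thus close to that of all microRNAs, and the high and middle doses share their controls. Without the 2 outlying day 7 controls, 3 members passed at the high dose.

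miR-17-5p, the member that gives the seed family its name, fell at the middle and high doses. In the controls it stood at 247, 222 and 205 CPM on day 3, at 246, 281 and 228 on day 7, and at 180.4 and 190.1 on day 14. The high dose libraries held 184, 173 and 179.8 CPM on day 3, 167, 159 and 151 on day 7, and 149 and 154 with 129 in the third library on day 14. Middle dose values were 127, 175 and 150.4 CPM on day 3, 128, 166 and 129.6 on day 7, and 159, 105 and 129 on day 14. All 9 high dose and all 9 middle dose libraries lay below every control of their own day. The average change was -0.45 ± 0.09 at the high dose (edgeR adjusted p = 4.5e-05, 9 libraries against 8) and -0.64 ± 0.09 at the middle dose (edgeR adjusted p = 2.24e-07), and both calls held under each of the 26 alternatives run, with ranges of -0.53 to -0.35 and -0.78 to -0.54. By day it passed at the middle dose on each day (-0.58 ± 0.15, -0.83 ± 0.15 and -0.51 ± 0.16 on days 3, 7 and 14) and at the high dose on day 7 (-0.66 ± 0.15). The middle dose call on day 14 was lost without control replicate 2 (-0.54) or without middle dose replicate 2 (-0.43).

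miR-20a-5p, from the same cluster as miR-17-5p and with the same seed, was higher at the high dose. Control libraries had 255, 238 and 215 CPM on day 3, 245, 209.7 and 169 on day 7, and 188 and 185 on day 14. High dose libraries had 296, 265 and 313 CPM on day 3, 317, 279.5 and 256 on day 7, and 279 and 292 with 232 in the third library on day 14. Every high dose library exceeded every control of its day. The average change at the high dose was 0.42 ± 0.11 (edgeR adjusted p = 0.0011). It was 0.29, past the threshold no longer, without the 2 outlying day 7 controls. Middle dose libraries spread from 138 to 280.0 CPM around a median of 229, overlapping the controls, and the change of 0.06 ± 0.11 did not pass (edgeR adjusted p = 0.633). By day the high dose passed on day 7 (0.45 ± 0.18) and day 14 (0.52 ± 0.20). The day 7 call was lost in 8 of 14 alternatives, among them without control replicate 2 (0.52) or 3 (0.36) or high dose replicate 1 (0.36) or 2 (0.46), and was 0.70 without control replicate 1. On day 14 it was lost in 10 of 12, with either other scaling (0.47 and 0.33), with no filter or a stricter one, in DESeq2, without either control (0.37 and 0.44), and without high dose replicate 1 (0.41) or 2 (0.39).

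The ratio of these 2 products within a library needs no scaling between libraries. In the controls the ratio of miR-17-5p to miR-20a-5p averaged 0.952 ± 0.019 (SD, n = 3) on day 3, 1.23 ± 0.20 (n = 3) on day 7 and 0.994 ± 0.045 (n = 2) on day 14. High dose ratios were 0.618 ± 0.041, 0.562 ± 0.032 and 0.539 ± 0.014 on the same days (n = 3 each). The middle dose gave 0.682 ± 0.059, 0.612 ± 0.093 and 0.669 ± 0.10. All 9 high dose and all 9 middle dose libraries lay below every control of their day. Averaged over days, the high dose ratio was 54.5% of the control ratio, a log2 difference of -0.87, and the middle dose ratio 62.0%, a difference of -0.69. Each gave p = 0.00025 in a two-sided exact permutation test of dose labels within days, the smallest the 4000 rearrangements can give, and 0.001 after Benjamini-Hochberg adjustment over 12 ratio tests. The low dose libraries of day 7, which fall in the same set of 21 libraries as the middle and high doses, had ratios of 0.813 to 0.904, above every middle and high dose library (0.514 to 0.757 and 0.527 to 0.656). The other low dose libraries had 0.815 to 1.07. The 2 outlying day 7 controls held the highest ratios of all, up to 1.35, and the differences kept their calls without them.

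**Figure D2:**
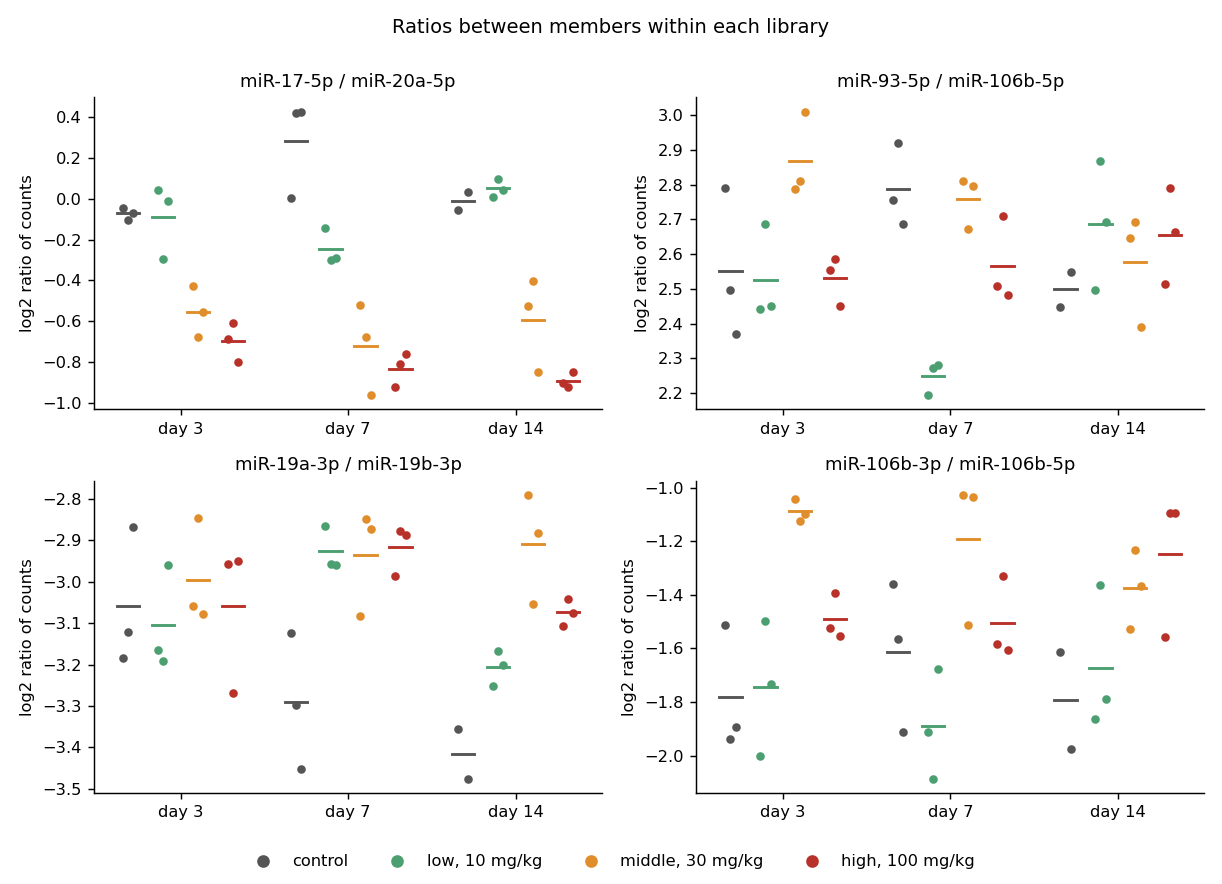
Ratio between members within each library (vertical axis, log2 ratio of counts; each panel has its own range) by day, with 1 point per library and a bar at the group mean. The ratio of miR-17-5p to miR-20a-5p is lower in all middle and high dose libraries than in the controls of the same day, while that of miR-93-5p to miR-106b-5p overlaps.

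miR-93-5p and miR-106b-5p carry the same seed from the other cluster, and they fell at the middle dose. For miR-93-5p the controls had 801, 838 and 711 CPM on day 3, 850.2, 1082 and 959 on day 7, and 683 and 606 on day 14. The middle dose libraries had 503, 624 and 557 CPM on day 3, 519, 659 and 662 on day 7, and 593, 444 and 546 on day 14, all below the controls of their day. The change was -0.47 ± 0.08 at the middle dose (edgeR adjusted p = 6.57e-06) and -0.21 ± 0.08 at the high dose (edgeR adjusted p = 0.0238). The high dose value rested on day 7, when the libraries held 634, 638 and 717 CPM and the change was -0.54 ± 0.13. On days 3 and 14 alone the average high dose change was -0.04 and did not pass, and with no filter on low counts it was -0.14 and did not pass.

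miR-106b-5p had 116, 148 and 137 CPM in the day 3 controls, 126, 143 and 149 on day 7, and 125 and 104 on day 14. The middle dose libraries had 72.7, 89.0 and 69.0 CPM on day 3, 74.0, 103 and 95.05 on day 7, and 94.7, 68.5 and 104 on day 14, so 8 of 9 lay below all controls of their day. The average change was -0.59 ± 0.11 at the middle dose (edgeR adjusted p = 2.14e-05), a call kept in each of its 26 alternatives, with values of -0.74 to -0.57. At the high dose the change was -0.18 ± 0.11 (edgeR adjusted p = 0.151), and the libraries, at 94.9 to 139 CPM, overlapped the controls. The ratio of miR-93-5p to miR-106b-5p differed from control by -0.03 on the log2 scale at the high dose (exact permutation within days, adjusted p = 0.703) and by 0.12 at the middle dose (adjusted p = 0.155). These p-values do not show that the ratios were equal. The lowest ratios were those of the low dose on day 7, 4.58 to 4.86, beside 6.44 to 7.57 in the day 7 controls, a difference not tested on its own.

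Summed, the 4 microRNAs with the seed AAAGUGC overlapped the controls at the high dose on 2 of 3 days, while the mean shares of miR-17-5p and miR-20a-5p within the sum lay outside their control range on each day. The sum averaged 1378 ± 96.4 CPM (SD) in the day 3 controls, 1562 ± 134 on day 7 and 1131 ± 64.2 on day 14. High dose sums averaged 1327 ± 98.1, 1219 ± 40.2 and 1167 ± 65.0 CPM, so the groups were apart on day 7 and overlapped on days 3 and 14. Middle dose sums averaged 1013 ± 148, 1079 ± 154 and 948 ± 170.1 CPM, and every middle dose library lay below the controls of its day. In the controls miR-20a-5p made up 13.3 to 17.1% of the sum and miR-17-5p 16.1 to 16.4%. At the high dose the shares were 22.0 to 23.3% and 12.3 to 13.5%, and at the middle dose 21.1 to 22.1% and 13.1 to 14.9%. In the low dose group of day 7 they were 21.35% and 18.01%. There the share of miR-20a-5p was larger than in the controls, while that of miR-17-5p was not smaller. miR-93-5p was the largest part of the summed CPM in every group, at 50.1 to 61.7%. These are shares of reads, which do not rank the molecules. miR-20b-5p, which RefSeq lists as the only other rat microRNA with this seed in its table, had at most 10 reads in a library and was not tested.

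**Figure D3:**
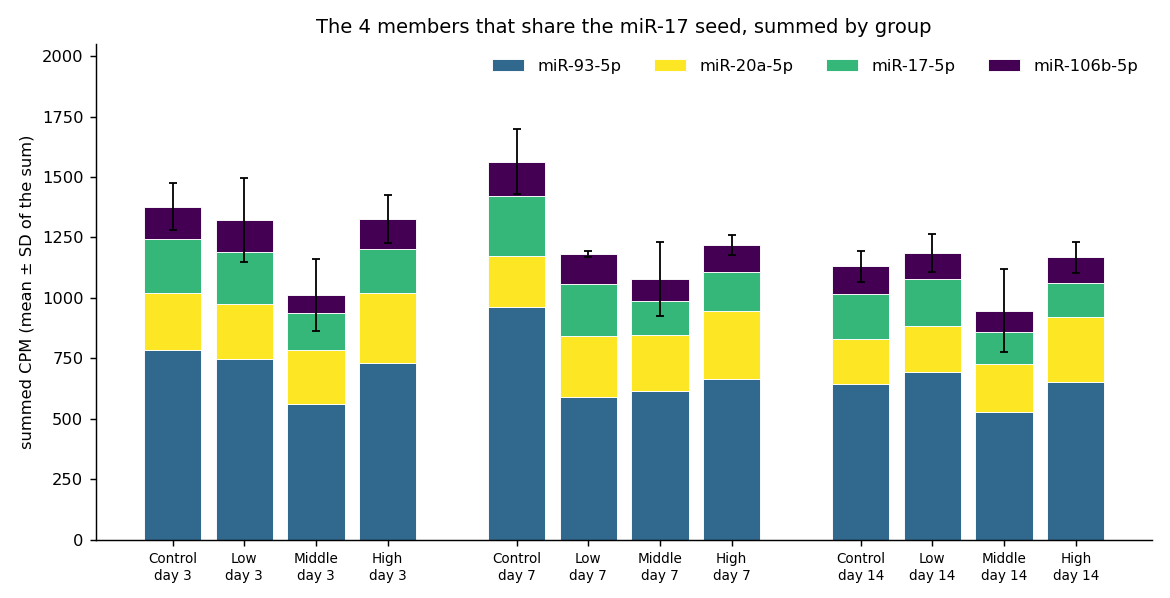
Mean summed level of the 4 members with the seed AAAGUGC in each group (vertical axis, CPM), split by member, with error bars for the SD of the sum (n = 3, or 2 for the day 14 control). The miR-17-5p segment is smaller at the middle and high doses than in the controls of the same day. The miR-20a-5p segment is larger than in those controls at the high dose. At the middle dose the miR-20a-5p segment is smaller than in the controls on day 3 (224 against 236 CPM) and larger on the other days.

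miR-19a-3p and miR-19b-3p, known as growth-promoting products of their cluster, were the other members that were higher at the high dose. miR-19a-3p stood at 67.2, 69.5 and 65.0 CPM in the day 3 controls, 66.1, 71.2 and 51.7 on day 7 and 42.0 and 44.5 on day 14. High dose libraries had 82.9, 60.3 and 82.5 CPM on day 3, 79.4, 87.3 and 81.9 on day 7, and 73.1, 83.3 and 75.2 on day 14. Thus 8 of 9 exceeded every control of their day, the second library of day 3 being the exception. The average change was 0.46 ± 0.12 (edgeR adjusted p = 0.00107), and the call held in all 26 alternatives run, between 0.39 and 0.53. The largest change by day, 0.83 ± 0.23 on day 14, was lost without either of the 2 controls (0.64 and 0.80), which lay lower than those of days 3 and 7. Between the controls themselves, day 14 against day 3 gave -0.64 ± 0.22 (edgeR adjusted p = 0.319).

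At the middle dose miR-19a-3p ranged from 49.8 to 89.5 CPM, and 6 of 9 libraries exceeded the controls of their day. The change was 0.32 ± 0.12 (edgeR adjusted p = 0.0207). That call was lost in 12 of 26 alternatives, among them library size scaling (0.17), only the libraries compared (0.32) and the fit without the 2 outlying day 7 controls (0.19). It was also lost without control replicate 2 of day 3 (0.26), replicate 3 of day 7 (0.25) or either control of day 14 (0.21 and 0.29). The same held without middle dose replicate 2 of day 3 (0.23) or of day 7 (0.22), or replicate 1 (0.25) or 3 (0.27) of day 14. On day 14 alone the middle dose change was 0.79 ± 0.22, and it was lost without either control (0.63 and 0.75).

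miR-19b-3p showed a smaller difference. Its controls ranged from 431 to 702 CPM with a median of 572, and the high dose libraries from 582 to 687 with a median of 635, so the groups overlapped. The average high dose change was 0.22 ± 0.09 (edgeR adjusted p = 0.0375). This call was lost in 13 of 26 alternatives, among them library size scaling (0.14), a stricter filter (0.18), the fit without the 2 outlying day 7 controls (0.20) and 9 of the fits that left out 1 library. Those libraries were control replicate 3 of day 3 (0.17), replicates 1 and 3 of day 7 (both 0.20) and replicate 1 of day 14 (0.13), and high dose replicates 1 and 3 of day 3 (0.20 and 0.21), 2 of day 7 (0.21) and 1 and 2 of day 14 (0.20 each). The middle dose change was -0.01 ± 0.09 (edgeR adjusted p = 0.923). Within libraries the ratio of miR-19a-3p to miR-19b-3p was 117.9% of control at the high dose and 123.8% at the middle dose, with exact permutation p adjusted to 0.018 and 0.008. On days 3 and 14 alone the log2 differences were 0.17 and 0.28 and no longer passed.

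miR-18a-5p, whose seed departs from the miR-17 seed by a single letter, fell at the middle dose. Control libraries had 22.1, 26.2 and 16.7 CPM on day 3, 25.2, 35.6 and 21.4 on day 7, and 16.7 and 13.3 on day 14. Middle dose libraries had 14.1, 14.8 and 9.80 CPM on day 3, 12.5, 17.0 and 13.9 on day 7, and 13.1, 8.30 and 12.8 on day 14, all below the controls of their day. The average change was -0.69 ± 0.14 (edgeR adjusted p = 0.000141), and the call held in its 26 alternatives, between -0.83 and -0.57. The high dose average of -0.30 ± 0.14 did not pass (edgeR adjusted p = 0.0726). It passed without control replicate 3 of day 3 (-0.36) or of day 7 (-0.34), or high dose replicate 1 of day 7 (-0.36) or of day 14 (-0.42). The high dose libraries of day 3, at 21.2 to 22.1 CPM, lay within the control range. Those of day 7, at 21.2, 14.7 and 16.1 CPM, lay below their controls, and the change of -0.65 ± 0.23 passed (edgeR adjusted p = 0.0206). That call was lost in 7 of 14 alternatives: with no filter (-0.42), with only the libraries compared (-0.54), without the 2 outlying controls (-0.55), without control replicate 1 (-0.58) or 2 (-0.35), and without high dose replicate 2 (-0.54) or 3 (-0.53). Each library held 22 to 118 reads of miR-18a-5p, so counting error is a sizeable part of its spread.

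miR-18a-3p, the other arm of that hairpin, is near the limit of these libraries, with 0 to 12 reads each and 166 in all 35. The changes of -1.06 ± 0.41 at the high dose and -1.08 ± 0.38 at the middle dose passed (edgeR adjusted p = 0.0236 and 0.0139). The high dose value rested on day 14. On day 3 the high dose change was 0.04 ± 0.53, with 20 summed reads in each group. On day 7 it was -0.26 ± 0.63, with 12 in each group, and neither passed. At the middle dose no single day passed. On day 14 the 3 high dose libraries gave 0, 2 and 0 reads against 8 and 8 in the controls, a ratio of summed reads per total of 0.1 with an exact 95% counting interval of 0.011 to 0.427, and edgeR's adjusted p was 0.0069. The 2 libraries with 0 reads allow up to 0.76 and 1.13 CPM each, before scaling between libraries. Leaving out high dose replicate 1 (-0.85) or 3 (-0.91) of day 14 ended the high dose average call, as did leaving out the 2 outlying day 7 controls (-1.12) or applying no filter (-0.99), while without replicate 2 of day 14, which held the only reads of that group, the value was -2.11. The ratio of the 3p to the 5p arm did not pass at either dose (exact permutation within days, adjusted p = 0.296 and 0.136).

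miR-106b-3p, the arm opposite miR-106b-5p, has a different seed and did not follow its partner's fall at the middle dose. Controls held 26.3 to 49.0 CPM with a median of 40.0, high dose libraries 37.1 to 48.2 with a median of 42.5, and middle dose libraries 29.1 to 46.3 with a median of 36.1, so the groups overlapped. Its changes were 0.12 ± 0.10 and -0.09 ± 0.10 at the high and middle doses (edgeR adjusted p = 0.267 and 0.427). The 3p to 5p ratio, however, was 0.294 ± 0.050 (SD), 0.331 ± 0.062 and 0.291 ± 0.051 in the controls of days 3, 7 and 14. Middle dose ratios were 0.471 ± 0.014, 0.443 ± 0.080 and 0.387 ± 0.039, which is 142.4% of control on average (exact permutation, adjusted p = 0.0024), and 8 of 9 libraries exceeded all controls of their day. The high dose ratio was 124.2% of control (adjusted p = 0.0311), with 5 of 9 libraries beyond the controls. That call was lost without the 2 outlying day 7 controls, at a log2 difference of 0.23 in place of 0.31. It was also lost without control replicate 2 (0.29) or 3 (0.29) of day 3, 3 of day 7 (0.26) or 2 of day 14 (0.25), and without high dose replicate 2 of day 3 (0.30), 2 of day 7 (0.28) or 2 or 3 of day 14 (0.29 each).

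By day, members passed at the high dose in 0 of 9 cases on day 3 (all microRNAs 35.1%), 4 on day 7 (51.8%) and 4 on day 14 (35.4%). On day 3, 1 member, miR-17-5p, had an unadjusted p under 0.05, and DESeq2 also called 1. Its change of -0.33 ± 0.15 passed without control replicate 3 (-0.43). On day 7 miR-20a-5p was higher, and miR-17-5p, miR-18a-5p and miR-93-5p were lower. Without the 2 outlying controls miR-17-5p alone passed, miR-93-5p moving to -0.39 and miR-20a-5p to 0.19. miR-19a-3p (0.40 ± 0.19) passed when control replicate 1 (0.55) or 2 (0.56) was left out. On day 14 miR-19a-3p, miR-19b-3p (0.49 ± 0.17) and miR-20a-5p were higher and miR-18a-3p was lower. The count on day 14 was 1 without control replicate 2 and 2 without high dose replicate 1, and miR-19b-3p lost its call in 8 of 12 alternatives, among them library size scaling (0.30), no filter (0.45) and a stricter one (0.38), and without either control (0.24 and 0.52) or without high dose replicate 1 (0.43) or 2 (0.38). miR-17-5p (-0.36 ± 0.16) passed on day 14 without control replicate 1 (-0.56) or high dose replicate 2 (-0.48), and miR-106b-3p (0.38 ± 0.18) without control replicate 1 (0.57).

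At the middle dose, 4 members passed on day 3 (all microRNAs 38.1%), 4 on day 7 (50.9%) and 2 on day 14 (28.4%). On days 3 and 7 the 4 were the same, miR-17-5p, miR-18a-5p, miR-93-5p and miR-106b-5p, and all were lower. Their changes on day 3 were -0.58, -0.74, -0.48 and -0.80, and on day 7 -0.83, -0.92, -0.65 and -0.62. The miR-18a-5p call on day 3 was lost without control replicate 2 (-0.61) or middle dose replicate 3 (-0.57), and the miR-106b-5p call on day 7 without the 2 outlying controls (-0.59). On day 14 miR-17-5p was lower and miR-19a-3p higher. The count there was 0 without control replicate 2, and 1 without control replicate 1 or middle dose replicate 2. miR-93-5p (-0.29 ± 0.15) passed on day 14 without middle dose replicate 1 (-0.46).

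**Figure D4:**
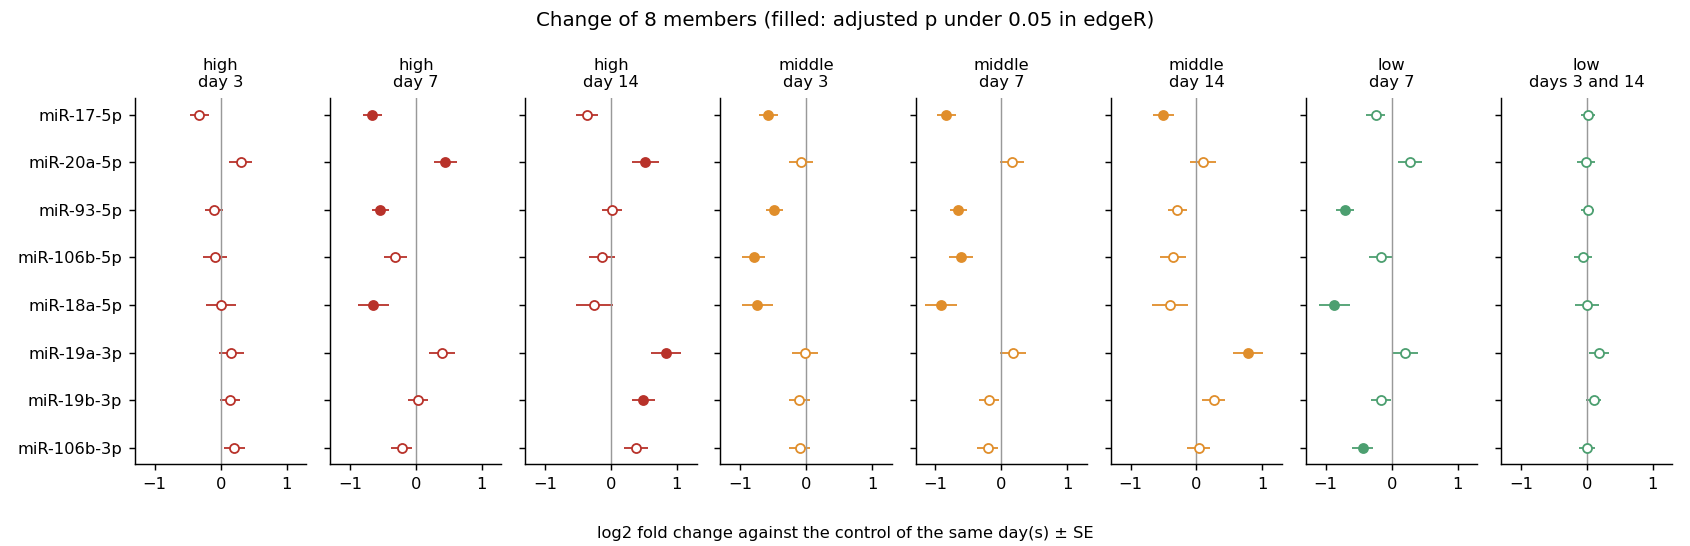
Change of 8 members against the control of the same day or days (horizontal axis, log2 fold change ± SE) at each dose and day; filled points passed the test in edgeR, and miR-18a-3p is left out for its few reads. miR-17-5p lies left of 0 in all 6 high and middle dose panels, and no member passed at the low dose on days 3 and 14.

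The low dose differed between days. On days 3 and 14 together no member passed, as for 0% of all microRNAs in edgeR, and at an unadjusted p under 0.05 there were 0 members and 16 of all 328. DESeq2 called 0 microRNAs as well. The changes of the 8 members other than miR-18a-3p lay between -0.06 and 0.19. On day 7, 3 of 9 members passed, all lower, where 45.1% of all microRNAs passed: miR-18a-5p (-0.87 ± 0.24), miR-93-5p (-0.70 ± 0.13) and miR-106b-3p (-0.44 ± 0.16). miR-93-5p had 597, 611 and 567 CPM in these libraries against 850.2, 1082 and 959 in the day 7 controls, and miR-18a-5p 13.6, 16.0 and 15.1 against 25.2, 35.6 and 21.4. Neither overlapped its controls. The miR-106b-3p call was lost without low dose replicate 2 (-0.36) and its value was -0.69 without the 2 outlying controls, and miR-17-5p (-0.24 ± 0.15) passed without control replicate 3 (-0.41). White blood cell markers stood higher in these libraries, at a summed 4168 to 5270 CPM against 1553 to 2208 in the day 7 controls, with 3 of 6 called higher. The 2 endothelial markers fell, to 24377 to 25945 CPM from 29074 to 37855, and of 5 stellate and smooth muscle markers 2 rose, led by miR-145-5p (3.55 ± 0.25), and 1 fell, with sums of 36873 to 43366 against 36437 to 41993 CPM. Bile duct and other epithelial markers (2 of 5 lower) summed to 683 to 916 against 992 to 1950 CPM, and hepatocyte markers (1 of 5 higher, 3 lower) to 231024 to 235152 against 271028 to 309244. None of 3 red blood cell markers passed. The part of other cell types in the members' day 7 values was not tested.

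The effect of the low dose on day 7 was then tested against its effect on days 3 and 14. In that test 2 of 9 members passed, against 37.5% of all microRNAs: miR-18a-5p by -0.88 ± 0.30 (edgeR adjusted p = 0.0193) and miR-93-5p by -0.72 ± 0.17 (edgeR adjusted p = 0.000841). The miR-18a-5p call was lost without control replicate 2 of day 7 (-0.77), control replicate 2 of day 14 (-0.76), low dose replicate 1 of day 7 (-0.81) or both outlying controls (-0.86). miR-106b-3p, at -0.44 ± 0.20 (edgeR adjusted p = 0.0855), passed without control replicate 3 of day 7 (-0.62) or 1 of day 14 (-0.75), low dose replicate 2 of day 3 (-0.52) or any low dose replicate of day 14 (-0.60 to -0.54). The low dose libraries of day 7 fall in the set of 21 libraries and the others in the set of 14, so this contrast and the split cannot be told apart.

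Inside the set of 21 libraries, the high dose gave higher levels than the middle dose for 3 of 9 members, where 17.4% of all microRNAs passed. These were miR-106b-5p (0.41 ± 0.10, edgeR adjusted p = 0.00706), miR-20a-5p (0.36 ± 0.10, edgeR adjusted p = 0.0151) and miR-93-5p (0.27 ± 0.08, edgeR adjusted p = 0.0153), all of the same seed, and their calls held in all 26 alternatives. The other member with that seed, miR-17-5p, gave 0.19 ± 0.09 (edgeR adjusted p = 0.115). miR-18a-5p (0.39 ± 0.14, edgeR adjusted p = 0.0532), miR-19b-3p (0.23 ± 0.09), miR-106b-3p (0.21 ± 0.09) and miR-19a-3p (0.15 ± 0.11) did not pass, nor did miR-18a-3p (0.02, edgeR adjusted p = 0.999). Among their alternatives miR-18a-5p passed in 14, with values up to 0.47, and miR-19b-3p in 10, with values up to 0.30. miR-17-5p and miR-106b-3p passed in 4 each. At an unadjusted p under 0.05, 7 members of several seeds were higher, where 116 of all 328 microRNAs differed. The count of members was 5 or 6 when any of 6 libraries was left out: 5 without middle dose replicate 2 of day 3 or high dose replicate 1 of day 3 or 3 of day 7, and 6 without middle dose replicate 2 of day 7 or 1 or 3 of day 14. Between the high and the low dose on day 7, 1 member passed, against 24.1% of all: miR-17-5p, at -0.42 ± 0.15 (edgeR adjusted p = 0.0343). That call was lost without any 1 of the 6 libraries compared, with values of -0.46 to -0.21. It was lost in 12 of 13 alternatives in all. The other 8 members did not pass there: miR-18a-3p gave -1.01 ± 0.56 and the rest lay between -0.15 and 0.23.

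Set against each other within libraries, the 6 members from the miR-17/92 cluster summed to 1.02 to 1.17 times the 3 from the miR-106b/25 cluster in the control groups. At the high dose the group means were 1.33 to 1.45, and at the middle dose 1.34 to 1.49. All 9 middle dose and 8 of 9 high dose libraries exceeded the controls of their day. The low dose gave 1.48 on day 7, and 1.18 and 1.23 on days 3 and 14. The sums leave out miR-92a-3p and miR-25-3p, at means of 8900 and 1605 CPM. Their largest parts were miR-19b-3p (571 CPM) and miR-93-5p (682 CPM). Reads of miR-17-5p and miR-19b-3p may also come from chromosome X. The ratio is thus one of these members and not of whole cluster output.

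The other products of these clusters include the members' opposite arms and the miR-25/miR-92 products. Of 18 listed, 16 were in the table and 8 were tested. At the high dose 1 rose, 2 fell and 5 did not pass, where 62.8% of all microRNAs passed. miR-92a-3p, whose hairpins Mir92a1 and Mir92a2 lie in the cluster and its X-linked relative and cannot be told apart by the counts, rose by 1.06 ± 0.10, while miR-25-3p (-0.54 ± 0.09) and miR-363-3p (-1.52 ± 0.15), also X-linked, fell. The opposite arms miR-17-1-3p (-0.24 ± 0.13), miR-19a-5p (-0.14 ± 0.20) and miR-93-3p (-0.35 ± 0.21) did not pass, and miR-20a-3p, with 1 to 8 reads per library, was not tested. At the middle dose 1 rose and 4 fell, beside 61.9% of all. miR-17-1-3p was among these 4, at -0.37 ± 0.13 (edgeR adjusted p = 0.0159).

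Lists of microRNAs with known roles in growth, chosen with earlier results of these data known, were set beside the members. Of 18 tested microRNAs known to restrain the cell cycle, the let-7, miR-15/16 and miR-34 families, 14 fell at the high dose, 1 rose and 3 did not pass, where 103 of all 328 fell and 103 rose. miR-16-5p fell by 1.04 ± 0.09 on the log2 scale, and miR-34a-5p, the only riser on the list, gained 1.09 ± 0.19. The median of the 18 was -0.45, beside -0.04 over all microRNAs. As they belong to families of related microRNAs, the 18 are not separate cases. Of 6 microRNAs known to promote growth outside these clusters, 4 fell and 2 rose, miR-221-3p (1.56 ± 0.18) and miR-222-3p (2.60 ± 0.18), beside the same 62.8% of all microRNAs that passed. The median of these 6 was -0.345, so it too lay below that of all microRNAs.

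At the high dose, too, some markers of liver cell types changed. The 2 endothelial microRNAs, miR-126a-3p and miR-126a-5p, fell at the high dose, and their summed level was 18909 to 22701 CPM there, 20376 to 25148 at the middle dose and 28706 to 37855 in the controls. Of 5 stellate and smooth muscle markers, 2 rose and 1 fell, with a summed level of 45925 to 60539 CPM at the high dose and 36357 to 49768 in the controls. Of 6 white blood cell markers, 1 rose and 3 fell, and the summed level overlapped, at 1838 to 2885 CPM against 1553 to 3170. Red blood cell markers (1 of 3 higher, 1 lower) summed to 2229 to 4544 against 1494 to 4071 CPM, and bile duct and other epithelial markers (1 of 5 higher, 2 lower) to 864 to 1638 against 940 to 1950. Of 5 hepatocyte markers, 1 rose and 4 fell, with sums of 238347 to 285775 against 225374 to 309244 CPM. At the middle dose the 2 endothelial markers fell too, 3 of 5 stellate and smooth muscle markers rose and 1 fell (38926 to 57044 CPM summed), and 2 of 6 white blood cell markers rose and 1 fell (2221 to 3184 CPM). No marker was without reads in all libraries, and the part of other cell types in the members' changes was not tested.

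Over the 12 group means of log2 CPM, the members fell into different patterns. As a description, with points that share the scaling of their libraries, miR-18a-5p and miR-93-5p, from different clusters, had the highest correlation among the members, r = 0.91. miR-17-5p correlated with miR-106b-5p (0.85), miR-18a-5p (0.81) and miR-93-5p (0.78), and gave -0.11 with miR-20a-5p and -0.35 with miR-19a-3p from its own cluster. miR-19a-3p went with miR-19b-3p (0.77) and miR-20a-5p (0.73). Among 234 other microRNAs with a mean of at least 10 CPM, the nearest to miR-17-5p and to miR-106b-5p was miR-345-5p (0.93 and 0.89). miR-15b-5p was nearest to miR-18a-5p (0.93), miR-499-5p to miR-20a-5p (0.87), miR-34a-5p to miR-19a-3p (0.82) and miR-598-3p to miR-19b-3p (0.81). For miR-93-5p it was miR-466b-5p, with miR-25-3p of its own cluster at the same rounded value (0.89), for miR-106b-3p miR-455-5p (0.87) and for miR-18a-3p, with its few reads, miR-17-1-3p (0.74).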

How the data were processed

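Small RNA libraries were made from total RNA of rat liver with an Illumina TruSeq kit, per the labels' protocols. Raw counts of reads for each mature microRNA make up the deposited table. The submitters' processing notes name the genome build rn6, while no aligner, counter or rule for reads that fit several microRNAs is given in the sources used here. Of 37 count columns, 4 were repeat runs of 2 libraries (middle dose, day 14) and were summed, giving 35 libraries. Of 763 microRNAs, 151 had no read. edgeR 4.0.16 (R 4.3.3) kept 328 with filterByExpr (minimum count 10, minimum total 15), scaled by TMM and fitted 1 mean per group over all libraries (23 residual degrees of freedom, robust quasi-likelihood). SE is the absolute log2 fold change over the square root of F. DESeq2 1.42.0 was an alternative. Ratios used counts plus 0.5. The scripts were tested on simulated data.

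All 9 members were counted in every comparison. Other cluster products were counted and the opposite arms named, at most 2 were named from each growth list, and the likeness rule took the highest r. The members and lists were chosen with earlier results of these data known. Of the alternatives, those without both outlying day 7 controls and those over days 3 and 14 alone were chosen after seeing the data. The labels do not say that the samples of a group came from separate animals, so p-values reflect only how far these samples spread, which may be technical. Intervals and limits of detection (3 reads) cover counting error only, since reads carry no molecular identifiers. Replicate numbers did not pair the libraries: 14 of 51 same-numbered pairs had residual correlations over 0.1 (median -0.01).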

Additional observations from a re-analysis of the deposited data

Results flagged for a closer look

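In 2 members the effect of the low dose on day 7 differed from its effect on days 3 and 14 in a direct test, by -0.88 for miR-18a-5p and by -0.72 for miR-93-5p on the log2 scale (edgeR adjusted p = 0.0193 and 0.000841). For miR-18a-5p the controls averaged 21.65, 27.4 and 14.96 CPM on days 3, 7 and 14, and the low dose 20.68, 14.87 and 15.72. For miR-93-5p the controls averaged 783, 964 and 645 CPM, and the low dose 746, 592 and 692. Both members thus had their highest control level on day 7. Without the 2 outlying day 7 controls the miR-18a-5p call was lost and the miR-93-5p call was kept. The low dose libraries of day 7 also stood with the middle and high dose libraries on the first principal component of all microRNAs. No test for a lone outlying value was run, since groups of 2 or 3 are too small for it, and the 2 day 7 controls are called outlying only for their scores on that component.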

How the results depend on the processing

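No called value changed direction under any alternative. Of 39 called changes of members, 21 kept their call in all their alternatives. Counts of members that passed moved as follows. Between the high and middle doses (3), scaling by DESeq2's size factors gave 5, library size alone 7, DESeq2 7, and leaving out 1 library 3 to 6. Between the high and low doses on day 7 (1), the count was 0 with size factors, library size alone, no filter, the filter of 10 CPM in 3 libraries and only the libraries compared, and 0 without any 1 library. For the middle dose on day 14 (2), library size alone gave 5, only the libraries compared 0, and leaving out 1 library 0 to 3. For the high dose, day 14 (4) gave 2 with no filter, 2 with the stricter filter and 1 to 4 without 1 library. Day 3 (0) gave 1 with the stricter filter, 1 with only the libraries compared, 1 with DESeq2 and 0 to 1 without 1 library. Day 7 (4) gave 2 with only the libraries compared, 2 to 4 without 1 library and 1 without the 2 outlying controls, which also took the high dose average (6) to 3. The low dose day 7 effect against days 3 and 14 (2) gave 1 without these controls and 1 to 3 without 1 library. The cause was not tested.

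With a replicate block (replicate number within day), the count for the high dose on day 14 was 2 in place of 4. The block left the count equal in 11 of 15 comparisons and within 1.5 times in 14, but not always the same calls: lost were miR-19b-3p in the high dose average (0.21) and on day 14 (0.44), miR-20a-5p on days 7 (0.45) and 14 (0.50) and miR-19a-3p in the middle dose average (0.28), and gained was miR-18a-5p in the high dose average (-0.31) and in high minus middle (0.39), and 10 of 35 libraries correlated best with their own number.

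Among log2 ratios, miR-106b-3p over miR-106b-5p at the high dose was 0.42 on days 3 and 14 alone and 0.23 without the 2 outlying controls, past the threshold in neither, and 0.25 to 0.37 without 1 library. miR-19a-3p over miR-19b-3p no longer passed on days 3 and 14 alone (0.17 high, 0.28 middle). miR-18a-3p over miR-18a-5p at the middle dose passed on these days (-0.80), and was -0.69 to -0.34 without 1 library.

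Library size alone shifted the median of all microRNAs by -0.15 in the middle dose average, -0.19 for the high dose on day 14, and -0.12 and -0.22 for the middle dose on days 3 and 14. The share of higher calls became 41.3% (from 51.7%), 41.3% (62.1%), 38.7% (52.8%) and 37.9% (64.5%), and 68.1% (45.6%) for high minus middle. Size factors moved high minus low on day 7 by 0.15, to 54.0% higher calls (DESeq2 51.9%) from 29.1%, and the low dose day contrast to 51.5% (DESeq2 50.0%) from 61.8%. Between control days 7 and 3 the share was 33.3% of 3 calls with size factors and 14.3% of 7 with library size alone, against 60.0% of 5. miR-18a-3p and miR-18a-5p held the fewest reads of the members, at 0 to 12 and 22 to 118 per library. The effect of depth on their calls was not tested.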
